A study of Mus musculus with 26 samples.

Results

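The genes described here encode enzymes that cut the extracellular matrix and the inhibitors that hold those enzymes in check. They are 6 matrix metalloproteinase genes (Mmp2, Mmp3, Mmp9, Mmp10, Mmp13 and Mmp14), 3 tissue inhibitor of metalloproteinases genes (Timp1, Timp2 and Timp3) and Fap, which encodes fibroblast activation protein. These 10 members were taken by symbol from the 18198 genes of the deposited expression table, and all 10 passed the filter on low values that left 16038 genes for testing. Their levels were followed in 26 mouse libraries, 2 for each of 13 groups, from fibroblasts through reprogramming to pluripotent cells.

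The starting cells were mouse embryonic fibroblasts (MEF, passage 2, grown in 10% fetal bovine serum), of which no strain is used here. Embryonic stem cells (ESC, CBA/CaJ X C57BL/6J, passages 20 to 24) and induced pluripotent stem cells (iPSC, passages 5 to 8) were both kept in N2B27 medium with the inhibitor pair known as 2i and LIF. In the OSK course, cells received Oct4, Sox2 and Klf4 by retrovirus and were taken at days 0, 1, 3, 5 and 7. The OSK-cJun course added the transcription factor Jun and was taken at days 0, 1, 3 and 7, and the OSK-shSap30 group carried a lentiviral hairpin against Sap30, a subunit of the Sin3 deacetylase complex, and was taken at day 7. By their labels all reprogramming groups carried the 3 factors, and the day 0 cells of each course, not MEF, are its own starting point. The labels describe infected cultures with no sorting step, and they do not say whether the 2 libraries of a group came from separate cultures, so p-values measure the spread between these libraries, which may be technical.

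Matrix metalloproteinases are zinc-dependent enzymes made as inactive precursors, secreted or held at the cell surface, which cleave collagens, gelatin, fibronectin and other matrix proteins. Timp proteins bind the active site and block it, and Timp2 also joins with the membrane enzyme Mmp14 to bring pro-Mmp2 to the cell surface for activation. Fibroblasts are a main source of both classes, and the promoters of stromelysin and collagenase genes are classic targets of AP-1, the dimer of Jun and Fos proteins.

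Because the study added Jun, the stretch just before the start of the 3 members that carried an AP-1 motif is shown first. Mmp3 and Mmp10 encode stromelysins, Mmp13 encodes a collagenase, and all 3 lie in a cluster on chromosome 9. The sequences are from RefSeq (GRCm38.p6), 120 bases that end at the base before the annotated start, read 5′ to 3′, with the AP-1 motif TGAGTCA or its reverse complement TGACTCA and the TATA motif TATAAA in capitals.
Mmp3 (chr9:7445702-7445821, plus strand): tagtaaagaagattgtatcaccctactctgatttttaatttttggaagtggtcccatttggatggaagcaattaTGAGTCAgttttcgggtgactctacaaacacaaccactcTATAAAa
Mmp10 (chr9:7502222-7502341, plus strand): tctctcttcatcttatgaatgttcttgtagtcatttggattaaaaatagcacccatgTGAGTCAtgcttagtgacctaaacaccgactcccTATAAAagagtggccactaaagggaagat
Mmp13 (chr9:7272394-7272513, plus strand): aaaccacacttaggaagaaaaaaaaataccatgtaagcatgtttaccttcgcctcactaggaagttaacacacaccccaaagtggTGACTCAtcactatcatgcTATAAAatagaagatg
In Mmp3 the AP-1 motif ran from base 46 to base 40 before the start, in Mmp10 from base 63 to base 57 and in Mmp13, on the reverse strand, from base 35 to base 29. The same 3 promoters held TATAAA, at bases 7 to 2, 29 to 24 and 16 to 11. Of 32851 promoters in the RefSeq table, 4.46% held the AP-1 motif and 12.4% held TATAAA within 250 bases, with both strands searched.

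Promoter entries were matched for 7 of the 10 members, and no motif was searched in Mmp2, Mmp9 or Fap. The ETS motif AGGAAG, present in 29.5% of all promoters, was found in Mmp3, Mmp13, Mmp14, Timp1 and Timp3, with 2 copies each in Mmp13 and Timp1. The Runx motif ACCACA, present in 14% of promoters, was found in Mmp13 and Mmp14. The letters of the AP-1 motif were not in the windows of Mmp14, Timp1, Timp2 or Timp3, and the Timp2 window held none of the 4 motifs. A match describes letters only, and the 4 motifs do not overlap one another in these 7 windows.

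**Figure D1:**
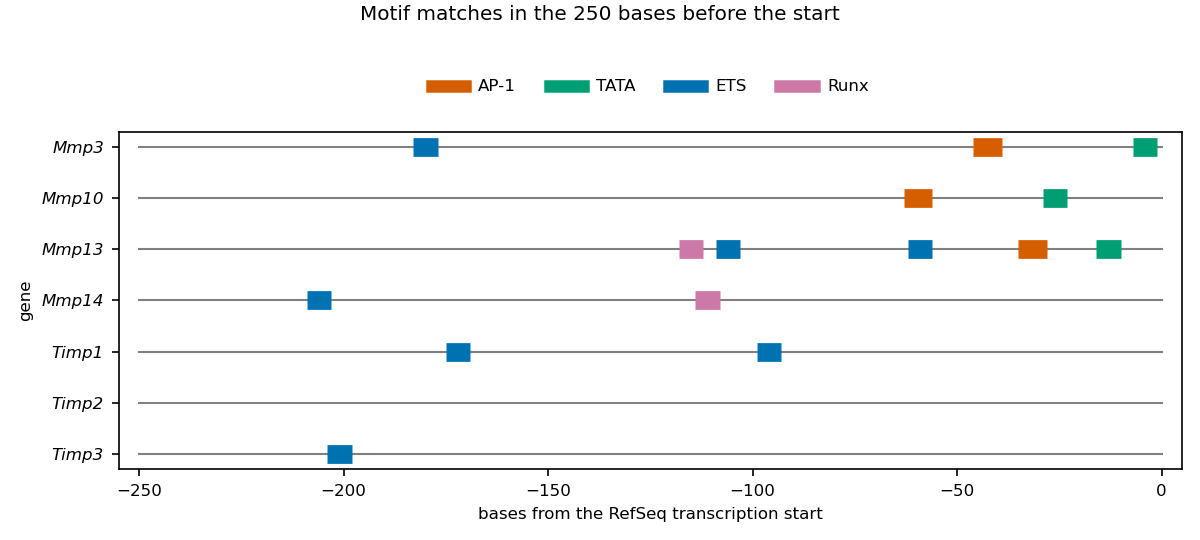
Position of each motif match in the 250 bases before the RefSeq start of the 7 members with a promoter entry; the x axis is distance from the start in bases and each row is a gene. AP-1 matches lie in Mmp3, Mmp10 and Mmp13, and the Timp2 row is empty.

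Values are a normalised expression score in which every library was forced to nearly the same distribution, so library totals lay between 4619641 and 4624161 and sequencing depth is unknown. In bulk samples of this kind, fewer cells of a type and less RNA per cell cannot be told apart. Replicate correlations ran from 0.9253 in MEF to 0.9602 in iPSC. Jun stood at 4616 to 8981 in the 8 OSK-cJun libraries and at 13 to 1010 in the other 18, and Sap30 stood at 20 and 41 with the hairpin against 301 and 378 in OSK day 7. The defining markers followed the labels: 6 fibroblast markers summed to 65809 and 66040 in MEF and 5 pluripotency markers to 8 and 17, while in ESC the sums were 902 and 1507 against 16912 and 16939. Tests were made with limma on log2(value + 1) over all 26 libraries, with n = 2 in each group. The word called is used where the adjusted p (Benjamini-Hochberg, over all tested genes) was under 0.05 and the log2 fold was 1 or more in size. Folds below are log2 folds with the standard error (SE), and they understate changes of genes with low values. Comparisons that use the same group share its libraries: MEF serves ESC, iPSC and OSK day 0, OSK day 0 serves every later OSK day, and OSK day 7 serves both the Jun and the hairpin comparisons.

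**Figure D2:**
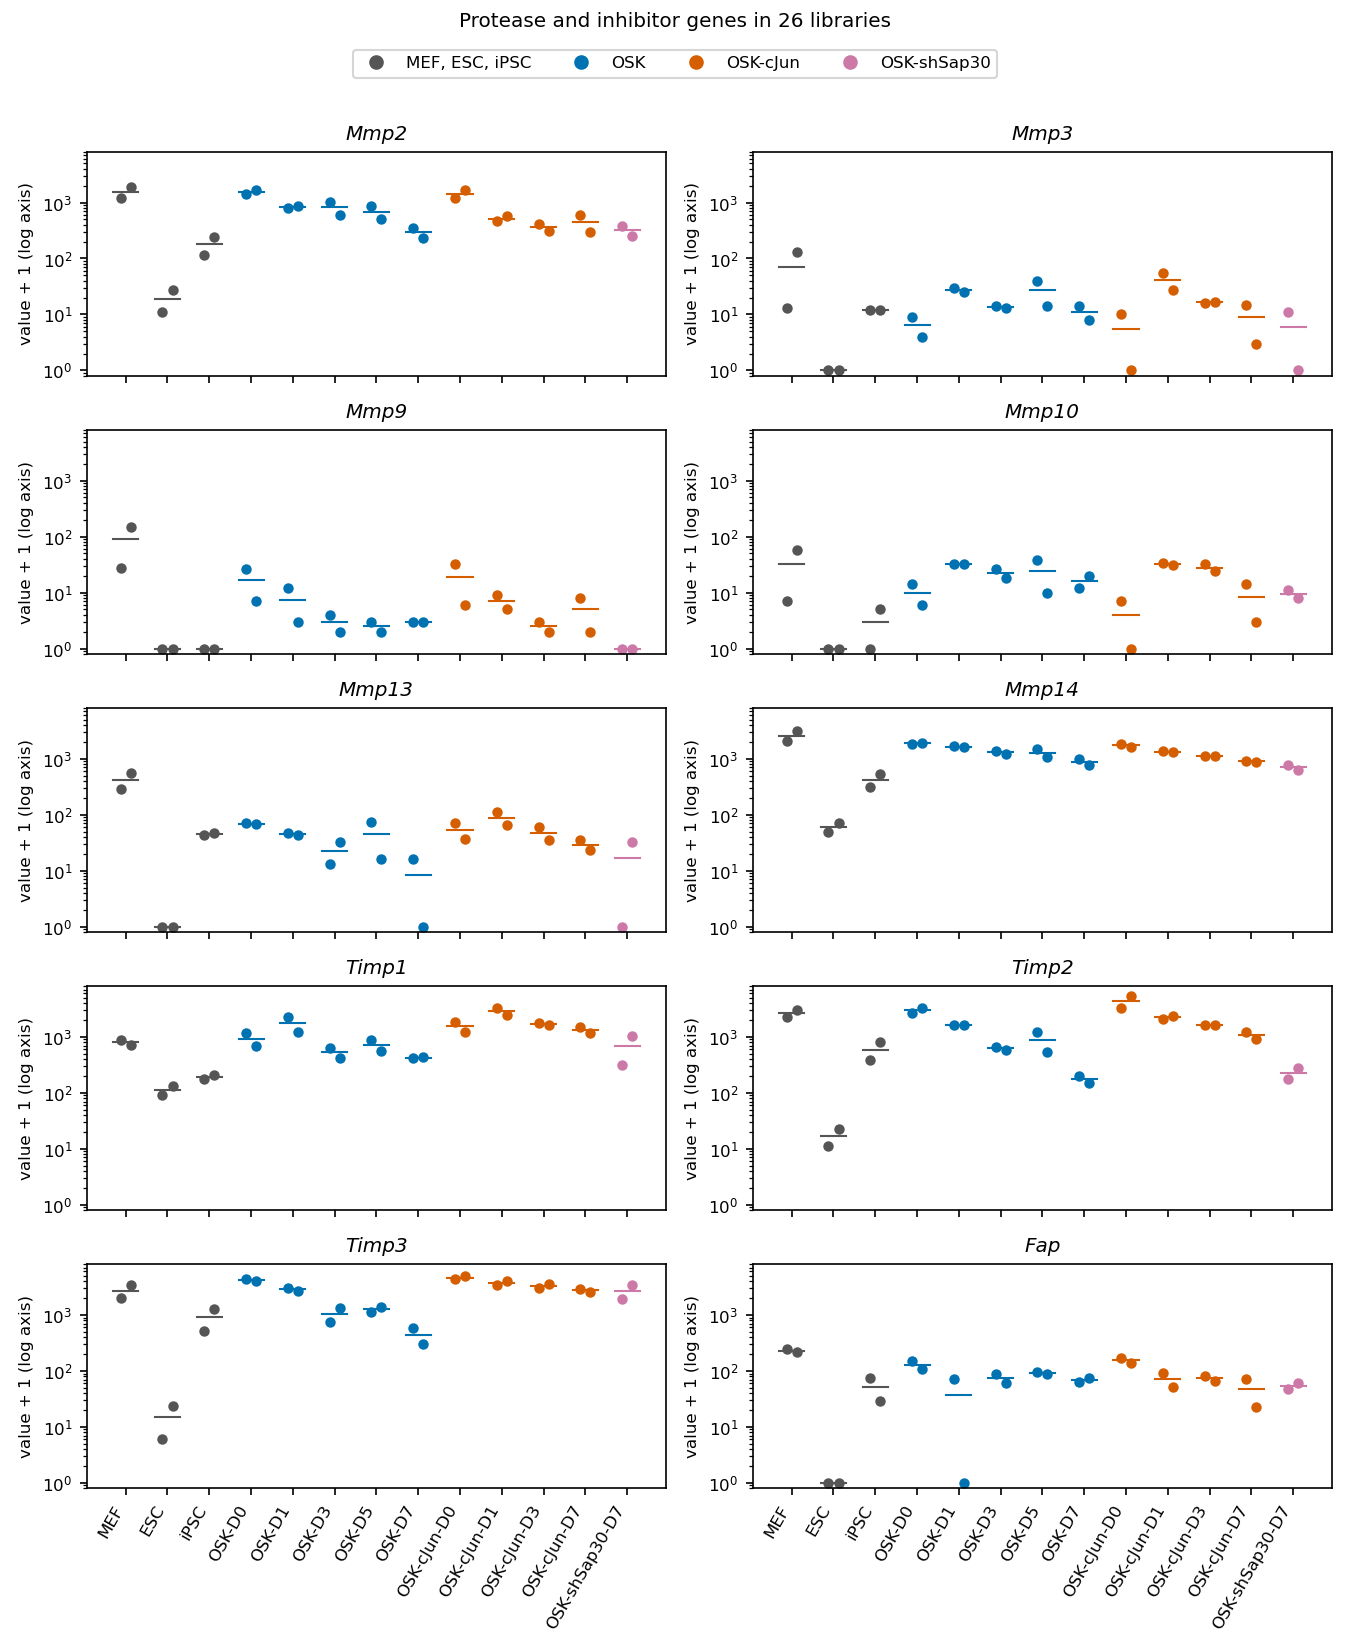
Deposited value plus 1 of each of the 10 members in each of the 26 libraries, on a log axis. Each point is 1 library and the groups are ordered from MEF, ESC and iPSC through the OSK, OSK-cJun and OSK-shSap30 courses. The ESC points are the lowest for Mmp2, Mmp14, Timp1, Timp2 and Timp3, and the OSK-cJun points of Timp2 and Timp3 at day 7 lie above those of OSK at day 7.

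MEF expressed the inhibitors and the cell-surface activation genes at the highest levels of the set. Per kilobase of exon, the mean MEF level was 898.6 for Timp1, 678.8 for Timp2, 456.5 for Mmp2, 435.3 for Mmp14 and 332 for Timp3. The collagenase gene Mmp13 followed at 157.3, Fap at 40.71 and Mmp3 at 39.14 per kilobase, and Mmp9 and Mmp10 closed the order at 25.01 and 18.29. Whether the score already allows for gene length is unknown, so the order between genes depends on this division. Undivided, the MEF means were 2704 for Timp3, 2644.5 for Timp2, 2594.5 for Mmp14, 1539 for Mmp2 and 798 for Timp1. Mmp2 and Mmp9 encode the gelatinases, so the 2 gelatinase genes stood far apart in fibroblasts. The replicates of MEF were close for Mmp2 (1214 and 1864), Mmp14 (2035 and 3154) and Timp2 (2258 and 3031), but not for the secreted proteases of low level. Mmp3 was 12 and 129, Mmp9 was 27 and 150 and Mmp10 was 6 and 57 in MEF replicates 1 and 2, so replicate 2 was the higher library for each. In the same libraries 7 macrophage and blood markers summed to 160 and 539, and 6 bone and cartilage markers to 2147 and 55; their part in these differences was not tested.

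The members stood lower in ESC than in fibroblasts. All 10 members were called lower in ESC than in MEF, where 20.6% of all tested genes were called lower. Their median log2 difference was -6.24, against 0.128 over all tested genes. The members' median includes genes listed at 0 in both ESC libraries, whose differences depend on the value added before the log. It is therefore no measure of the size of the fold. Among the proteases, Mmp2 stood at 10 and 26 in the ESC libraries and was lower by a fold of -6.45 (SE 0.45, adjusted p = 3.65e-09). Mmp14, which encodes the membrane-anchored activator of Mmp2, stood at 48 and 71 and had a fold of -5.42 (SE 0.25, adjusted p = 2.32e-11). No ESC library overlapped MEF for either gene. Mmp3, Mmp9, Mmp10, Mmp13 and Fap were listed at 0 in both ESC libraries, so no fold is given, with adjusted p from 2.43e-05 for Mmp13 to 0.00194 for Mmp10. The Mmp10 call was lost without MEF replicate 2 (adjusted p = 0.0551) and with the spread taken from the MEF and ESC libraries alone (adjusted p = 0.0516).

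The inhibitors did not fall equally in ESC. Timp2 stood at 10 and 22 and Timp3, the inhibitor that binds to matrix and also blocks ADAM family proteases, at 5 and 23 in ESC. The fold was -7.36 for Timp2 (SE 0.41, adjusted p = 2.03e-10), and Timp3 had -7.76 (SE 0.53, adjusted p = 3.47e-09). Timp1, a secreted inhibitor of most matrix metalloproteinases, had values of 92 and 132 in ESC against 881 and 715 in MEF. Its fold of -2.84 (SE 0.44, adjusted p = 3.54e-05) was the smallest in size among the 5 members with a value above 0 in ESC.

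iPSC stood between fibroblasts and ESC. Against MEF, 8 of 10 members were called lower, with 19.7% of all tested genes called lower and a median fold of -2.46 for the members. The libraries of the 2 groups did not overlap for any of the 10. The share of all tested genes without overlap was not counted, so this is not read as a trait of the members. Mmp2 was 116 and 240 in iPSC, a fold of -3.16 (SE 0.45, adjusted p = 2.06e-05), and Mmp14 was 310 and 538, a fold of -2.63 (SE 0.25, adjusted p = 2.65e-07). Both genes thus sat well below MEF and well above the ESC libraries. Timp1 (178 and 208), Timp2 (379 and 803) and Timp3 (527 and 1281) had folds of -2.04 (SE 0.44), -2.24 (SE 0.41) and -1.67 (SE 0.53), with adjusted p of 0.00095, 0.000216 and 0.0147. Among the inhibitors the 2 iPSC libraries differed most for Timp3, and its call against MEF was lost without MEF replicate 2 (fold -1.28, adjusted p = 0.13), without iPSC replicate 1 (fold -1.03, adjusted p = 0.194) and with the spread from the compared libraries alone (adjusted p = 0.0849).

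The proteases of low level gave weaker calls in iPSC. Mmp9 was listed at 0 in both iPSC libraries (adjusted p = 5.42e-05). Mmp13 was 42 and 47, with a fold of -3.14 (SE 1.27, adjusted p = 0.0494) that lost its call without any 1 of the 4 libraries (adjusted p from 0.075 to 0.201). Mmp10 was 0 and 4, with a fold of -3.17 (SE 1.05, adjusted p = 0.0173) whose size dropped to -1.65 without MEF replicate 2 and to -2.01 without iPSC replicate 1, with adjusted p of 0.27 and 0.207. Mmp3 (11 in both libraries) and Fap (75 and 28) were not called, with folds of -1.78 (SE 1.19) and -2.30 (SE 1.18) and adjusted p of 0.227 and 0.116. Without MEF replicate 1 the Mmp3 fold was -3.44 and called (adjusted p = 0.04). Fap was called after adding 10 rather than 1 (adjusted p = 0.0116) and with the spread from the compared libraries alone (adjusted p = 0.0377).

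Against ESC, which grew in the same medium, iPSC had more of 6 members and less of none. The share of all tested genes called higher in iPSC was 4.57%. Timp3 was higher by 6.10 (SE 0.53, adjusted p = 8.87e-07), Timp2 by 5.12 (SE 0.41, adjusted p = 2.63e-07), Mmp2 by 3.28 (SE 0.45, adjusted p = 0.000112) and Mmp14 by 2.79 (SE 0.25, adjusted p = 1e-06). Mmp13 and Fap were called against an ESC level listed at 0 (adjusted p = 0.0119 and 0.0065), Mmp13 losing its call without any 1 of the 4 libraries (adjusted p from 0.0568 to 0.091) and Fap without iPSC replicate 1 (adjusted p = 0.0706). Timp1 did not pass the test, with a fold of 0.80 (SE 0.44, adjusted p = 0.367). Mmp3 was 11 in both iPSC libraries and listed at 0 in ESC, and it did not pass either (adjusted p = 0.0863). It was called after adding 0.1 rather than 1 (adjusted p = 0.0363) and with the spread from the compared libraries alone (adjusted p = 0.0478). With the spread from the iPSC and ESC libraries alone, Timp3, Mmp2 and Mmp14 missed the threshold (adjusted p = 0.0552, 0.073 and 0.0502).

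Fibroblast markers moved beside these members in iPSC. The 6 fibroblast markers summed to 8581 and 14846, which is 13.02% and 22.52% of the MEF mean in iPSC replicates 1 and 2, against 1.368% and 2.286% in ESC. On the same measure Mmp2 had 7.537% and 15.59% of its MEF mean, Mmp14 11.95% and 20.74%, Timp2 14.33% and 30.36%, Timp1 22.31% and 26.07% and Timp3 19.49% and 47.37%. The summed pluripotency markers of iPSC, 16971 and 17056, were as high as those of ESC. For each of these 5 genes and for the markers, iPSC replicate 2 had the larger share. The part of the fibroblast markers in the member values was not tested.

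The first step, from MEF to OSK day 0, changed no member by the rule, while 4.92% of all tested genes were called higher and 2.06% lower. By unadjusted p below 0.05, 2 members differed, Mmp3 and Mmp9. Mmp3 lay below both MEF libraries at 8 and 3 (log2 fold -2.78, SE 1.19, adjusted p = 0.174) and so did Mmp9 at 25 and 6 (log2 fold -2.27, SE 0.96, adjusted p = 0.167). Without MEF replicate 1 the Mmp3 fold was -4.44 and called (adjusted p = 0.0423). Mmp13 was 71 and 66 against 287 and 554 in MEF, which did not pass the test either (log2 fold -2.53, SE 1.27, adjusted p = 0.267). It was called after adding 10 rather than 1 before the log (adjusted p = 0.018). The inhibitors were not called at this step, with Timp2 at 2709 and 3265, Timp3 at 4312 and 4019 and Timp1 at 1156 and 678.

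Over the OSK course the inhibitors Timp2 and Timp3 fell early, and by day 7 they had the lowest shares of their day 0 level left among the 10 members. The proteases Mmp13 at 10.95% and Mmp9 at 12.9% were close to Timp3 at 10.71%. On days 0, 1, 3, 5 and 7 in turn, Timp2 was 2709 and 3265, then 1650 and 1629, then 666 and 593, then 1200 and 533, and finally 202 and 150. It was called lower at day 3 (fold -2.24, SE 0.41, adjusted p = 0.000628), day 5 (fold -1.89, SE 0.41, adjusted p = 0.00231) and day 7 (fold -4.09, SE 0.41, adjusted p = 9.96e-07). At day 7 its mean was 5.892% of the day 0 mean, the lowest share of any member. Timp3 went from 4312 and 4019 to 3037 and 2720, then 748 and 1330, then 1142 and 1404, and then 592 and 300 over the same days. It was called at day 3 (fold -2.06, SE 0.53, adjusted p = 0.00902), day 5 (fold -1.72, SE 0.53, adjusted p = 0.0239) and day 7 (fold -3.30, SE 0.53, adjusted p = 0.000146), with 10.71% of day 0 left. No library of day 3, 5 or 7 overlapped day 0 for either gene.

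These 2 genes were the only members called at days 3 and 5, where 8.69% and 9.86% of all tested genes were called lower. The Timp3 call at day 3 was lost without OSK day 0 replicate 1 (fold -2.01, adjusted p = 0.0575) or day 3 replicate 1 (fold -1.65, adjusted p = 0.105). At day 5 it was lost without any 1 of the 4 libraries, with adjusted p from 0.0565 to 0.115, and the day 5 call of Timp2 missed the threshold with the spread from the day 0 and day 5 libraries alone (adjusted p = 0.0634).

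Timp1 took another course. From 1156 and 678 on day 0 it stood at 2263 and 1227 on day 1, then at 635 and 425, at 892 and 560, and on day 7 at 413 and 432. Both day 1 libraries were above both day 0 libraries, but the fold of 0.91 did not pass the test (SE 0.44, adjusted p = 0.246). The day 7 fold of -1.07 missed the threshold too (SE 0.44, adjusted p = 0.0751), with 46.07% of the day 0 mean left. Per kilobase, Timp1 was the highest of these genes at day 7 (475.8), above Mmp14 (146.5), Mmp2 (86.18), Timp3 (54.76) and Timp2 (45.17), whereas Timp1 and Timp2 had led in MEF on that measure. Undivided, Mmp14 had the highest day 7 mean (873), above Timp3 (446), Timp1 (422.5), Mmp2 (290.5) and Timp2 (176).

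The gelatinase Mmp2 and its activator Mmp14 were called lower at day 7 of the OSK course. Over days 0, 1, 3, 5 and 7, Mmp2 was 1404 and 1653, then 812 and 856, 1019 and 610, 850 and 515, and lastly 352 and 229. Mmp14 was 1860 and 1944, 1674 and 1609, 1402 and 1201, 1480 and 1078, and 971 and 775 on those days. For both genes every library from day 1 on lay below both day 0 libraries. At day 1 the fold of Mmp2 was -0.87 (SE 0.45, adjusted p = 0.288), beside -0.86 for Timp2 and -0.53 for Timp3, and none of the 3 passed the test. The day 7 folds were -2.42 for Mmp2 (SE 0.45, adjusted p = 0.000545), and -1.13 for Mmp14 (SE 0.25, adjusted p = 0.00236). Mmp2 had 19.01% and Mmp14 45.9% of the day 0 mean left. The Mmp14 fold was -0.97 without day 7 replicate 2, under the fold limit at an adjusted p of 0.0351. Mmp2 was also called at day 5 after adding 10 rather than 1 (adjusted p = 0.0358).

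At day 7 the members called lower were Mmp2, Mmp13, Mmp14, Timp2 and Timp3, 5 of 10, with 12.6% of all tested genes called lower. The median fold of the members was -1.65, against 0.0598 over all tested genes. The collagenase Mmp13 was 71 and 66 on day 0, then 46 and 42, 12 and 31, 72 and 15, and on day 7 it was 15 and 0. Its fold of -4.12 (SE 1.27, adjusted p = 0.0204) rested on day 7 replicate 2, which was listed at 0: without it the fold was -2.12 (adjusted p = 0.292). The call was also lost without either day 0 library (adjusted p = 0.082 and 0.0726) and with the spread from the compared libraries alone (adjusted p = 0.11).

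The stromelysins, Mmp9 and Fap gave no call in the OSK course. At day 1 no member was called, against 3.18% of all tested genes called higher and 3.12% lower, and 1 had an unadjusted p below 0.05. That member was Fap, with 148 and 107 before and 72 and 0 on day 1 (fold -3.89, SE 1.18, adjusted p = 0.0524). It rested on the day 1 library listed at 0: on days 3, 5 and 7 Fap stood at 89 and 60, then 93 and 89, then 63 and 73. Fap was called without day 1 replicate 1 (adjusted p = 5.4e-06), which leaves the library at 0 and so gives no fold. It was also called with 10 added (adjusted p = 0.033) or at a filter of 50 (adjusted p = 0.0455).

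Mmp3 stood at 8 and 3 on day 0 and at 29 and 24 a day later, and Mmp10 at 13 and 5 and then 31 and 31. The day 1 libraries of both stromelysin genes lay above day 0, with folds of 2.19 (SE 1.19, adjusted p = 0.313) and 1.80 (SE 1.05, adjusted p = 0.353) that did not pass the test. Later values of Mmp3 were 13 and 12, 39 and 13, and 13 and 7, and those of Mmp10 were 25 and 17, 37 and 9, and 11 and 19. Mmp9 had its highest OSK values first, with 25 and 6 on day 0, then 11 and 2, 3 and 1, 2 and 1, and 2 and 2 on day 7, and it passed the test on no day. Its day 5 fold of -2.46 was called without OSK day 0 replicate 2 (fold -3.41, adjusted p = 0.0455).

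Over the same days the 6 fibroblast markers summed to 48581 and 56608 on day 0 but 29626 and 31130 on day 7, and the 5 pluripotency markers reached 320 and 425 at day 7. Single markers fell by more than the sum: 4 of the 6 were called lower at each of days 3, 5 and 7, and the median log2 fold of the 6 was -3.34, -3.09 and -3.91. All 5 pluripotency markers were called higher at day 7, with a median fold of 4.20. The part of these markers in the member values was not tested.

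**Figure D3:**
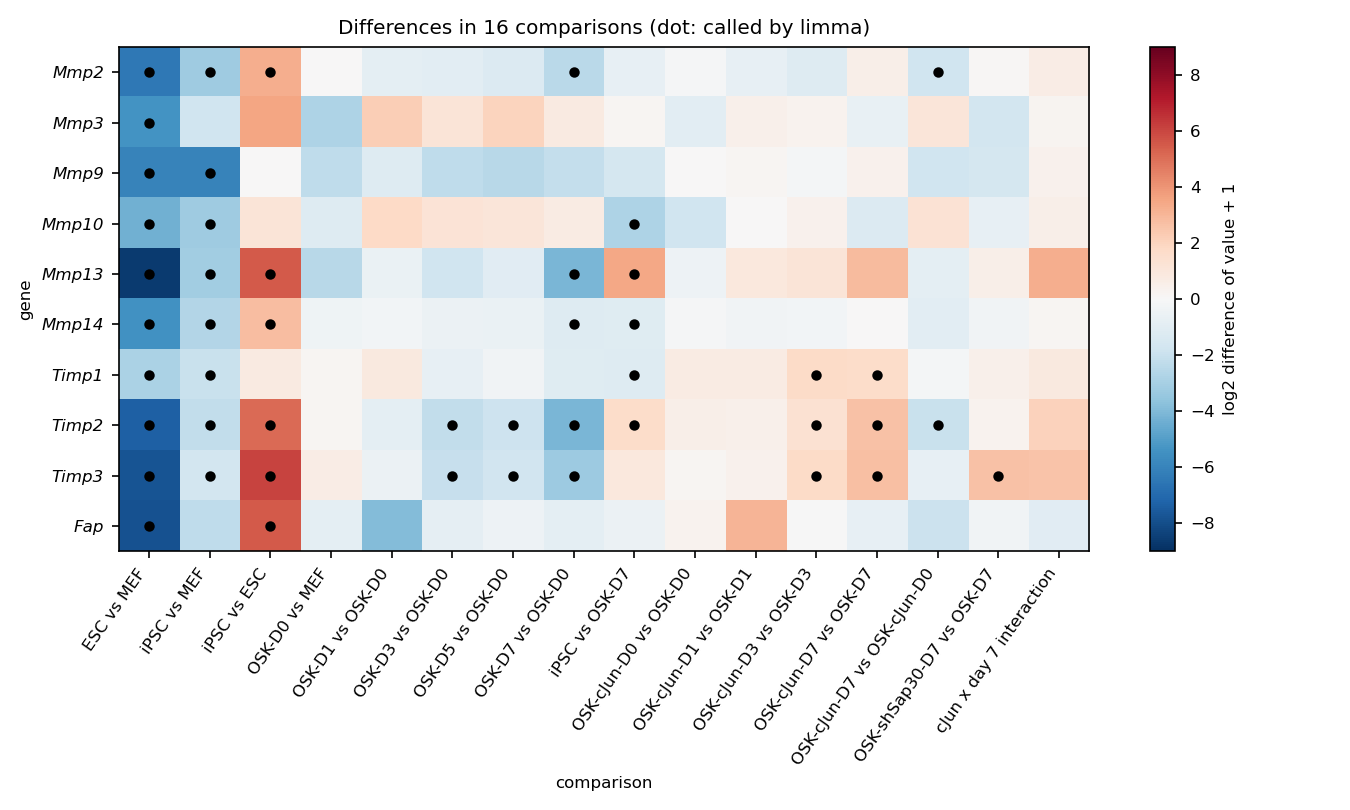
Log2 fold of each of the 10 members (rows) in each comparison (columns), as the colour of the log2(value + 1) difference, with a dot where it was called; where a group is listed at 0 the colour is no measure of a fold. Every member is called in ESC against MEF, Timp2 and Timp3 are the members called at OSK days 3 and 5, and the Timp rows are the ones called between OSK-cJun and OSK at days 3 and 7.

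From OSK day 7 to established iPSC the members went in both directions. In iPSC, Timp2 stood above OSK day 7 by 1.66 (SE 0.41, adjusted p = 0.00373) and Mmp13 by 3.51 (SE 1.27, adjusted p = 0.0369), with 14.7% of all tested genes called higher. Mmp14 was lower by a fold of -1.08 (SE 0.25, adjusted p = 0.00247), Timp1 of -1.13 (SE 0.44, adjusted p = 0.049) and Mmp10 of -2.79 (SE 1.05, adjusted p = 0.0408), with 15.7% called lower. By count, 2 of 10 members higher and 3 of 10 lower were near these shares, so neither direction is read as a trait of the members.

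None of these 5 calls held under every library left out. Timp2 lost its call without iPSC replicate 2 (fold 1.12, adjusted p = 0.0772), and Mmp14 without OSK day 7 replicate 1 (fold -0.92) or iPSC replicate 1 (fold -0.69). Mmp13 had a fold of 1.51 without OSK day 7 replicate 2, the library listed at 0, and was not called without either iPSC library (adjusted p = 0.108 and 0.123). Timp1 was not called without any 1 of the 4 libraries (adjusted p from 0.103 to 0.184). Mmp10 had a fold of -1.63 without iPSC replicate 1, and of -1.06 after adding 10 rather than 1, and it was not called without either OSK day 7 library (adjusted p = 0.0722 and 0.183). With the spread from these 4 libraries alone Timp1 was the only call left.

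With added Jun the 3 inhibitors stood higher than in OSK at days 3 and 7, while no protease member was called in either direction. At day 0 no member differed between OSK-cJun and OSK, by adjusted or by unadjusted p below 0.05, and 0.0312% of all tested genes were called higher and 0.0436% lower. At day 1 there was again no call, with 1.24% of all tested genes called higher and 0.742% lower, and 1 member, Fap, at an unadjusted p below 0.05 with overlapping libraries (92 and 51 against 72 and 0). At day 3 the members called higher were Timp1, Timp2 and Timp3, 3 of 10, against 4% of all tested genes, and at day 7 they were again Timp1, Timp2 and Timp3, against 6.76%. No member was called lower on any day.

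On days 0, 1, 3 and 7 of the OSK-cJun course Timp1 was 1827 and 1242, then 3275 and 2473, then 1737 and 1633, and last 1521 and 1165. These libraries were above the OSK libraries of the same day on all 4 days. The fold against OSK was already 0.77 at day 0 (SE 0.44, unadjusted p = 0.0998 by limma), which was not called. Later folds were 0.77 at day 1 (SE 0.44, adjusted p = 0.558), 1.69 at day 3 (SE 0.44, adjusted p = 0.0202) and 1.65 at day 7 (SE 0.44, adjusted p = 0.0159). OSK-cJun day 1 was the group with the highest Timp1 mean of the study, 2874. The day 3 call was lost without OSK day 3 replicate 2 (adjusted p = 0.177) or either OSK-cJun day 3 library (adjusted p = 0.115 and 0.086). The day 7 call was lost without either OSK day 7 library (adjusted p = 0.0679 and 0.0756) or OSK-cJun day 7 replicate 1 (adjusted p = 0.131).

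Timp2 in the OSK-cJun course was 3265 and 5483, 2123 and 2354, 1650 and 1608, and 1237 and 913 at days 0, 1, 3 and 7. From day 1 on the libraries lay above those of OSK, with folds of 0.45 at day 1 (SE 0.41, adjusted p = 0.823), 1.37 at day 3 (SE 0.41, adjusted p = 0.0422) and 2.60 at day 7 (SE 0.41, adjusted p = 0.000353). The day 7 call of Timp2 was kept under every alternative and without each library in turn. Its day 3 call was lost without any 1 of the 4 libraries (adjusted p from 0.134 to 0.199), after adding 0.1 rather than 1 (adjusted p = 0.0527) and without the variance trend (adjusted p = 0.0669).

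Timp3 in the OSK-cJun course was 4312 and 5030, 3415 and 4019, 3037 and 3614, and 2946 and 2545 at days 0, 1, 3 and 7, so that 58.78% of its day 0 mean was left at day 7, against 10.71% in OSK. The folds against OSK were 0.37 at day 1 (SE 0.53, adjusted p = 0.941), 1.73 at day 3 (SE 0.53, adjusted p = 0.0492) and 2.70 at day 7 (SE 0.53, adjusted p = 0.00222). The day 3 call was lost without any 1 of the 4 libraries (adjusted p from 0.0724 to 0.331), and with 0.1 added (0.0689), no filter (0.0506), no variance trend (0.0693) or the spread from the compared libraries alone (0.0632). The day 7 call was kept without each library in turn and missed the threshold with the spread from the compared libraries alone (adjusted p = 0.0543). Per kilobase at OSK-cJun day 7, Timp1 stood at 1512, Timp3 at 337.1, Timp2 at 275.9, Mmp14 at 151 and Mmp2 at 131.1. Undivided, the means there were 2745.5 for Timp3, 1343 for Timp1, 1075 for Timp2, 900 for Mmp14 and 442 for Mmp2.

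**Figure D4:**
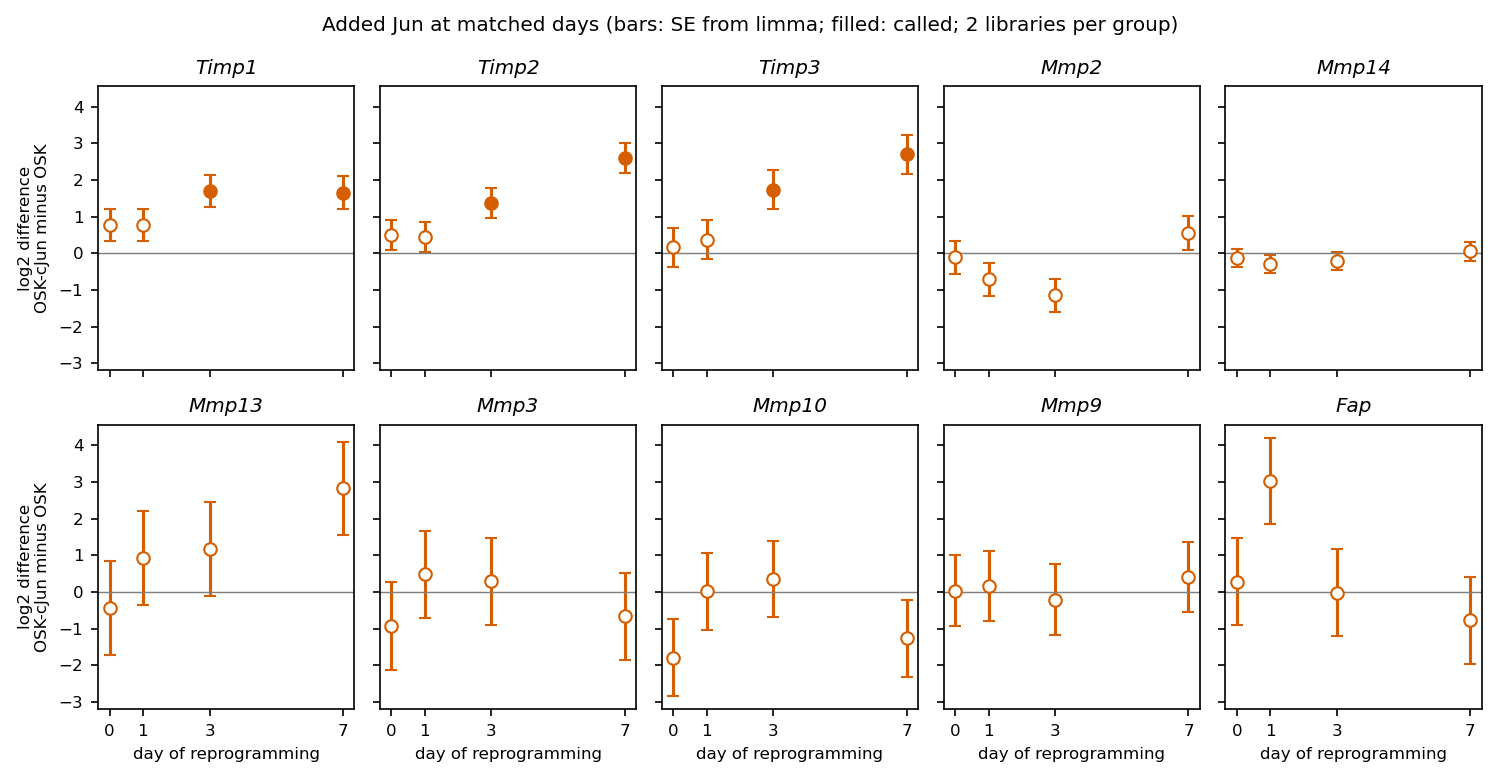
Log2 fold of OSK-cJun against OSK for each member at days 0, 1, 3 and 7, with the standard error from limma as bars (n = 2 libraries per group). The 3 Timp genes are above 1 at days 3 and 7, while Mmp2 and Mmp14 lie at or below 0 from day 1 to day 3.

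No protease member passed the test against OSK in the Jun course, and whether proteases and inhibitors differed from each other was not tested. Mmp2 was 1202 and 1676 on day 0, then 460 and 562, 411 and 311, and on day 7 it was 588 and 296. At days 1 and 3 both libraries lay below OSK, with folds of -0.71 (SE 0.45, adjusted p = 0.624) and then -1.14 (SE 0.45, adjusted p = 0.138), whereas at day 7 they overlapped it. Mmp14 was 1860 and 1632, 1364 and 1313, 1140 and 1099, and 920 and 880, and it lay below OSK at days 1 and 3 by folds of -0.29 (SE 0.25, adjusted p = 0.796) and -0.21 (SE 0.25, adjusted p = 0.742). None of these passed the test, which does not show that the levels were equal.

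The 3 genes with an AP-1 motif in the printed promoters gave no call with added Jun on any day. Mmp3 was 9 and 0, 53 and 26, 15 and 16, and 14 and 2 at days 0, 1, 3 and 7 of OSK-cJun, and Mmp10 was 6 and 0, 33 and 30, 31 and 23, and 13 and 2. Mmp3 lay above OSK at day 3 by a fold of 0.29 (SE 1.19, adjusted p = 0.959), and on the other days, like Mmp10 on every day, its libraries overlapped OSK. Mmp13 was 70 and 36, 109 and 65, 59 and 34, and 34 and 22, and it lay above OSK at day 1 (fold 0.92, SE 1.27, adjusted p = 0.93), day 3 (fold 1.17, SE 1.27, adjusted p = 0.708) and day 7 (fold 2.83, SE 1.27, adjusted p = 0.147). The OSK day 7 libraries of Mmp13 were 15 and 0, so its day 7 fold rested on OSK day 7 replicate 2, the library listed at 0. Without OSK day 7 replicate 1 only that library is left in the group, so no fold is given. The standard errors of these 3 genes, from 1.05 to 1.27, were more than those of Timp2 (0.41) and Mmp14 (0.25), so a change of the size seen for the inhibitors could have been missed. Mmp9 (31 and 5, 8 and 4, 2 and 1, and 7 and 1) and Fap (171 and 138, 92 and 51, 79 and 66, and 70 and 22) were not called either.

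Within the OSK-cJun course itself, Mmp2 and Timp2 were called lower at day 7 than at day 0, 2 of 10, with 8.79% of all tested genes called lower. Timp2 had a fold of -1.99 (SE 0.41, adjusted p = 0.0016) and Mmp2 of -1.76 (SE 0.45, adjusted p = 0.00831), leaving 24.58% and 30.72% of the day 0 mean. Mmp14 had a fold of -0.95 (SE 0.25, adjusted p = 0.0107), under the fold limit, and was called without OSK-cJun day 0 replicate 2 (fold -1.05). Timp1 kept 87.52% of its day 0 mean. The Mmp2 call was lost without OSK-cJun day 0 replicate 2 (fold -1.52, adjusted p = 0.0788) or day 7 replicate 2 (fold -1.27, adjusted p = 0.117), and with the spread from the compared libraries alone (adjusted p = 0.0738).

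Whether the fall from day 0 to day 7 differed between the courses was tested as an interaction, and no member passed, with 2.46% of all tested genes called in the positive and 1.36% in the negative direction. By unadjusted p below 0.05 there were 2 members, Timp2 with a difference of folds of 2.09 (SE 0.58, adjusted p = 0.0515) and Timp3 with 2.53 (SE 0.75, adjusted p = 0.0689). Both were called after adding 10 rather than 1 (adjusted p = 0.0301 and 0.021), Timp2 also at a filter of 50 (adjusted p = 0.0442), and Timp3 also with the spread from the compared libraries alone (adjusted p = 0.0407) and without OSK day 7 replicate 1 (adjusted p = 0.0496). The difference was 0.89 for Timp1 (SE 0.62, adjusted p = 0.502), 0.66 for Mmp2 (SE 0.64, adjusted p = 0.652), 0.18 for Mmp14 (SE 0.36, adjusted p = 0.865) and 3.26 for Mmp13 (SE 1.80, adjusted p = 0.365). Without single libraries the Mmp13 difference ran from 1.26 to 5.26, and OSK day 7 replicate 2 was listed at 0 for this gene.

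Markers of other cells were read beside the Jun comparison. The fibroblast markers summed to 44685 and 44846 in OSK-cJun at day 3 against 34457 and 43965 in OSK, and to 44048 and 44062 at day 7 against 29626 and 31130, and none of the 6 was called on either day. The 5 pluripotency markers summed to 14 and 23 at day 7 against 320 and 425, with all 5 called lower and a median log2 fold of -4.46, and 1 of the 5 was called lower at day 3. The 7 macrophage and blood markers summed to 803 and 941 against 110 and 190 at day 3 and on day 7 to 375 and 659 against 112 and 139, and 1 of the 7 was called on both days. That gene was Cd68, which encodes a lysosomal protein, with 688 and 883 on day 3 of OSK-cJun and 527 and 351 on day 7. At day 3 of OSK-cJun the defining macrophage genes stood at 12 and 3 for Adgre1, 15 and 3 for Csf1r, 4 and 0 for Tyrobp and 1 and 0 for Spi1, and at day 7 at 0 and 0, 4 and 1, 0 and 0 and 1 and 1 in the same order. The 4 endothelial markers summed to 571 and 1149 at day 7 against 317 and 496, with Kdr called and Cdh5 listed at 0 in both OSK-cJun libraries; at day 3 the sums were 959 and 1757 against 423 and 436, with none of the 3 tested called. The part of the fibroblast, pluripotency, macrophage and endothelial markers in the Timp values was not tested.

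With the Sap30 hairpin, 1 member was called against OSK day 7, Timp3, with 4.93% of all tested genes called higher. Timp3 stood at 1947 and 3415 with the hairpin against 592 and 300, a fold of 2.61 (SE 0.53, adjusted p = 0.0043). The 2 hairpin libraries were above both OSK libraries and overlapped the OSK-cJun day 7 values of 2946 and 2545. The call was lost without OSK day 7 replicate 2 (fold 2.12, adjusted p = 0.0778), without OSK-shSap30 replicate 2 (fold 2.21, adjusted p = 0.0506) and with the spread from the compared libraries alone (adjusted p = 0.133). Timp2 at 174 and 277 and Timp1 at 318 and 1048 overlapped the OSK day 7 libraries, as did Mmp2 at 382 and 252, Mmp13 at 0 and 32 and Mmp3 at 10 and 0. Mmp14 at 775 and 633 touched the lower OSK library. Fap at 46 and 61 and Mmp10 at 10 and 7 lay just below the OSK day 7 libraries and did not pass the test (Fap fold -0.35, SE 1.18, adjusted p = 0.903 and Mmp10 fold -0.72, SE 1.05, adjusted p = 0.704), and Mmp9 was listed at 0 in both libraries. Fibroblast markers summed to 26010 and 14804 with the hairpin, below both OSK day 7 libraries, while the median log2 fold of the 6 was 0.50 and none was called. The pluripotency markers summed to 61 and 74 against 320 and 425, with 3 of 5 called lower and a median fold of -2.30. The part of these markers in the Timp3 value was not tested.

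The wider protease network was read from lists of related genes. Of 25 tested ADAM and ADAMTS genes, which encode membrane-bound and secreted metalloproteinases, 20 were called lower and 1 higher in ESC than in MEF, with 20.6% and 22.4% of all tested genes. At OSK day 7 against day 0, 12 were called lower and 0 higher, with 12.6% and 11.3% of all tested genes. The largest falls at day 7 were those of the aggrecanase gene Adamts5 (-7.36) and of Adamts12 (-5.52). With added Jun at day 7, 4 were called higher and 1 lower, with 6.76% and 5.03% of all tested genes, so the lower count is near the background. Among those higher were Adam9 (1.69, SE 0.28, adjusted p = 0.000443) and Adam12 (1.66, SE 0.47, adjusted p = 0.0218). Adam12 already stood above OSK at day 0, at 353 and 255 in OSK-cJun against 157 and 103, which was not called. With the hairpin 7 were called higher and 0 lower, with 4.93% and 4.92% of all tested genes, and Adam9 (1.78), Adamts5 (3.45) and Adamts12 (2.27) were among the 7. The median fold of this list was 0.36 with Jun and 0.97 with the hairpin, against -0.05 and -0.01 over all tested genes.

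The plasminogen system, which makes the protease plasmin at the cell surface, was read as a list too. The urokinase gene Plau was called lower at OSK day 7 than at day 0 (-5.05, SE 0.61, adjusted p = 6.78e-06). The urokinase receptor gene Plaur was higher with added Jun at day 3 (3.45, SE 0.59, adjusted p = 0.00119) and day 7 (3.09, SE 0.59, adjusted p = 0.00185) and with the hairpin (2.37, SE 0.59, adjusted p = 0.0138). The protease inhibitor gene Serpine2 was lower with Jun at day 7 (-2.01, SE 0.59, adjusted p = 0.0285). With the hairpin Plau was higher too (2.70).

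Among 9 tested genes for other inhibitors and binding partners, 6 were called lower at OSK day 7 than at day 0, where 12.6% of all tested genes were, including Reck, a membrane-anchored inhibitor of metalloproteinases (-3.21), and Lrp1, the endocytic receptor that clears proteases and their complexes (-2.43). With added Jun at day 7, 3 were called higher and 0 lower, with 6.76% and 5.03% of all tested genes called in those directions. They were Cd44 (1.97), Lrp1 (1.49) and Tfpi2, which was listed at 0 in both OSK day 7 libraries. Of 6 tested convertases and procollagen proteases, 4 were called lower at OSK day 7 than at day 0 (background 12.6%) and 2 higher with Jun at day 7 (background 6.76%), the convertase gene Pcsk6 (2.97, SE 0.48, adjusted p = 0.000445) and the procollagen enhancer gene Pcolce (1.16, SE 0.26, adjusted p = 0.00451). For Adam9, Adamts7, Lrp1, Pcsk6 and Pcolce the interaction of Jun with day was called as well (differences of 1.64, 1.57, 1.74, 2.70 and 1.35). Of 11 tested cathepsin genes, 9 were called lower in ESC than in MEF (background 20.6%) and 3 lower at OSK day 7 than at day 0 (background 12.6%). With Jun at day 7, 1 was called higher, Ctsd (1.57), a share near the background of 6.76%.

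Other matrix metalloproteinases were few. Of 17 listed, 15 were in the table and 8 passed the filter, of which 4 were called lower in ESC than in MEF (background 20.6%). At OSK day 7 against day 0, 3 were called lower, with 12.6% of all tested genes (Mmp11 at -2.61, Mmp19 at -1.74 and Mmp23 at -5.05). Mmp15, which encodes a membrane-type metalloproteinase like Mmp14, was lower with Jun at day 3 (-3.19, SE 0.55, adjusted p = 0.00111) and day 7 (-2.37, SE 0.55, adjusted p = 0.00678). With Jun at day 7, 1 of the 8 was called higher and 1 lower, with 6.76% and 5.03% of all tested genes. Mmp28 stood higher, at 250 and 274 in OSK-cJun day 7 against 78 and 75 in OSK day 7. Dpp4, the serine protease most closely related to Fap, was higher in ESC than in MEF, where Fap was lower (Dpp4 log2 fold 6.39) and higher at OSK day 7 than at day 0 (2.91, SE 0.68, adjusted p = 0.00347). It was lower with Jun at day 7 (-3.14, SE 0.68, adjusted p = 0.00456), and Fap was not called in either of these comparisons.

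The members are spread over the genome apart from the chromosome 9 cluster. On GRCm38, in the GENCODE annotation, all 10 are protein coding. Mmp13 (ENSMUSG00000050578) lies at chr9:7272514-7283331, Mmp3 (ENSMUSG00000043613) at chr9:7445822-7455975 and Mmp10 (ENSMUSG00000047562) at chr9:7502352-7510240, a span of 237.7 kb from Mmp13 to Mmp10. Between and around them, Mmp12 ranged from 44 to 104 over the libraries, Mmp1b from 0 to 10, Mmp27 from 0 to 6, Mmp7 from 0 to 4 and Mmp1a and Mmp8 each from 0 to 3. Mmp2 (ENSMUSG00000031740) lies at chr8:92827291-92853420, Mmp9 (ENSMUSG00000017737) at chr2:164940780-164955850 and Mmp14 (ENSMUSG00000000957) at chr14:54431612-54445364. Timp1 (ENSMUSG00000001131) lies at chrX:20870166-20874735, Timp2 (ENSMUSG00000017466) at chr11:118301069-118355740, Timp3 (ENSMUSG00000020044) at chr10:86300372-86349506 and Fap (ENSMUSG00000000392) at chr2:62500943-62574075. The RefSeq start of Mmp10 lies a few bases before its GENCODE start. The Timp genes sit in or across other genes: Timp3 shares 1733 exon bases with Syn3 on the opposite strand, and the kit as labelled does not mark strand. Syn3 was 0 to 18 over the libraries, and Timp1 and Timp2 share 0 exon bases with their neighbours Syn1 and Cep295nl.

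The genes whose pattern was most like each member were found over the 13 group means, which share MEF and pluripotent extremes, so these correlations are descriptions. For Mmp2 the closest of 10526 genes was Mmp14 (r = 0.978). For Mmp14 the closest were Pogk (0.995) and Prrx1 (0.988), for Timp1 Rab27b and Cap1 (0.980 each), for Timp2 Cav1 (0.968), and for Timp3 Itgbl1 (0.978) and Ehd2 (0.965). Mmp13 was closest to Abi3bp (0.958) and Ccn4 (0.954), and Mmp9 to Stx6 (0.963) and Acbd3 (0.953). Fap (Csf1, 0.912), Mmp10 (Srgap1, 0.907) and Mmp3 (Map3k2, 0.815) had looser partners. Between members, Timp2 and Timp3 had r = 0.911 and Timp1 and Timp3 r = 0.831.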

How the data were processed

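Per the labels' protocols, TRIzol RNA went into TruSeq RNA libraries that were read on a NextSeq 500. The submitters' processing notes name bcl2fastq, Bowtie2, RSEM and mm10, with no versions. The deposited values are a normalised score made by the authors: they are whole numbers, but sorted values differ between libraries by at most 2 at any rank and each library has the same highest value of 21544. The normalisation method is not given in the sources used here, and depth is unknown. Of 18198 genes, 18039 were matched to a symbol and 159 were not, and 0 sample columns were unused.

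Here 1 was added before log2, and 16038 genes that reached 10 in at least 2 libraries were kept. A limma model (3.58.1, with statmod 1.5.0 in R 4.3.3) held all 26 libraries and the 13 group means, with a variance trend and robust moderation. The same script was tested on simulated data. No fold is given for a gene where every library used of a group was listed at 0. Where 1 of 2 libraries was at 0 a fold may be printed, and its size depends on the value added before the log. Members were always named, with the genes of fixed related lists and, per member, the genes of highest correlation; some genes of these lists are not reported here. The members and lists were chosen with earlier results of these data known. Alternatives were 0.1 or 10 added, no filter or a filter of 50, no trend, scaling to totals, a replicate block, the spread from the compared libraries alone and each library left out. Replicate numbers were not used as pairs. Promoters came from RefSeq (GRCm38.p6). The tools data.table (version 1.17.8), pandas 2.3.3 and matplotlib 3.10.9 in Python 3.11.15 read and drew the data.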

Additional observations from a re-analysis of the deposited data

How the results depend on the processing

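Of 47 called member results, 26 were kept without each library in turn and 21 were lost without at least 1, and no call reversed. The number kept was 42 with 0.1 added, 46 with 10 added, 44 with no filter, 42 of 42 at a filter of 50, 43 without the trend, 47 with scaling to totals, 46 with a replicate block and 31 with the spread from the compared libraries alone. The number of members called for OSK-cJun against OSK at day 3 (3) was 1 with 0.1 added, 1 without the trend, and 0 to 1 without single libraries. For the hairpin (1) it was 2 with 0.1 added, 0 with the compared libraries alone and 0 to 2 without single libraries. With 10 added it was 1 for OSK day 0 against MEF (0), 1 for OSK day 1 (0) and 2 for the interaction (0). At a filter of 50 it was 1 for OSK day 1 and 1 for the interaction. With the compared libraries alone it was 1 for OSK day 5 (2), 1 for iPSC against OSK day 7 (5), 1 for OSK-cJun day 7 against day 0 (2) and 1 for the interaction.

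Without single libraries the number ranged from 5 to 8 for iPSC against MEF, 0 to 1 for OSK day 0 against MEF, 0 to 1 for OSK day 1, 1 to 2 for OSK day 3, 1 to 2 for OSK day 5, 3 to 5 for OSK day 7, 1 to 2 for iPSC against OSK day 7, 0 to 1 for OSK-cJun day 1, 1 to 2 for OSK-cJun day 7 against day 0 and 0 to 1 for the interaction. The uncalled interactions of Mmp3 and Mmp10 changed sign with 10 added (-0.0703 and -0.0166). Without single libraries Mmp3 ran from -1.39 to 1.93, Mmp9 from -0.83 to 1.58 and Mmp10 from -0.87 to 1.94.

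The labels do not say that replicate numbers pair libraries, and the data do not settle it: over 78 pairs of groups the correlation of deviations was above 0.1 in 28 and below -0.1 in 0, with a median of -0.00127 (from -0.0883 to 0.331), so the block was kept as an alternative. The replicate block gave 1 member called at OSK day 1 (Fap, adjusted p = 0.0346), 2 for the interaction (Timp2, 0.0468, and Timp3, 0.0413), added Mmp9 at OSK day 5 (0.0462) and lost Mmp13 for iPSC against MEF (0.0573).

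Counts over all genes moved more with the compared libraries alone, to 376 from 998 for iPSC against ESC, 0 from 1120 for OSK day 0 against MEF (2499 at unadjusted p below 0.05), 53 from 1010 for OSK day 1, 1667 from 3152 for OSK day 5, 0 from 12 for OSK-cJun day 0 (984 unadjusted), 0 from 318 for OSK-cJun day 1 (2161 unadjusted), 541 from 1891 for OSK-cJun day 7, 0 from 1580 for the hairpin (3276 unadjusted) and 331 from 613 for the interaction. For OSK-cJun day 0 they were 23 with 10 added and 6 at a filter of 50. The lowest counts without a single library were 629 for OSK day 0 against MEF, 396 for OSK day 1, 536 for iPSC against ESC, 1 for OSK-cJun day 0, 52 for OSK-cJun day 1, 717 for OSK-cJun day 3, 1046 for OSK-cJun day 7, 512 for the hairpin and 208 for the interaction. With 2 libraries a group and unknown depth, members near 0 (Mmp3, Mmp9 and Mmp10) give folds that rest on single values. Where a call changed with the setting, the cause was not tested.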
